A study of Mus musculus with 5 samples.

Results

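The genes of replication licensing were read in thoracic aorta of mice that carried dominant negative PPARγ in smooth muscle, and in that of their non-transgenic littermates. They were the helicase subunits Mcm2, Mcm3, Mcm4, Mcm5, Mcm6 and Mcm7, the firing factor Mcm10, the loaders Cdc6 and Cdt1, and the Cdt1 inhibitor geminin (Gmnn). These 10 genes of the 18193 named on the array were read by 27 of its 45037 probe sets, taken by gene symbol, with 1 to 5 probe sets per gene. The family was chosen by a measured value: Mcm6 stood among the transcripts with the smallest p between these same groups in an earlier analysis of these arrays. The differences of the members between genotypes are therefore given as a description, with standard errors (SE). Counts from the fit over the whole array are printed beside the same shares over all probe sets, and nothing about the members is read from them.

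Before a cell copies its DNA, the origin recognition complex, Cdc6 and Cdt1 load a ring of the MCM subunits onto each origin, which licenses it for one round of replication. Geminin binds Cdt1 and blocks reloading until mitosis has passed. Mcm10 acts later, when the loaded ring is switched on as the replicative helicase. E2F transcription factors, held back by the Rb family in resting cells, are the textbook activators of these genes at entry into the cell cycle, and adult aortic smooth muscle is largely out of the cycle.

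Total RNA was hybridised to Affymetrix mouse expression arrays, on which a probe set is a group of short probes read together as 1 value. A probe set can match more than 1 gene, as 932 of them did here. There were 2 arrays of non-transgenic littermates and 3 of transgenic mice that carry the human PPARγ mutant P467L driven by the promoter of smooth muscle myosin heavy chain. All mice were male C57BL/6, their age is not given in the sources used here, and the RNA of 6 to 8 aortas was combined for every array. The labels call these pools independent biological replicates. The deposited values are log2 levels, and a level of 1 probe set cannot be set against that of another. Levels are from whole vessel wall, so fewer cells of a type and less RNA per cell cannot be told apart.

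P467L replicate 1 stood apart from the remaining arrays. It correlated with them at 0.985 to 0.991 over all probe sets, against 0.995 to 0.997 among the others, and the nuclear RNA Malat1 measured 8.03 there against 9.45 to 9.87 elsewhere. The 6 contractile smooth muscle markers were bright in all 5 arrays, with mean levels from 11.98 to 14.80, and their summed linear level was 96500 to 97000 in non-transgenic and 97500 to 98700 in P467L aortas. The mouse Pparg probe set measured 7.32 and 6.91 in littermate aortas against 7.32, 7.27 and 7.27 in P467L aortas. It is not established that this probe set reads the human transgene, and the labels are not checked by it. The 6 macrophage markers were all higher in P467L aortas, with a summed level of 6020 to 7710 against 5790 to 5850, and the highest value of all 6 lay in P467L replicate 1. The 7 stomach markers summed to 2140 and 31400 in the non-transgenic arrays and to 3550 to 4700 in P467L aortas. The summed level of the 5 cardiac muscle markers was 535 to 648 in littermate and 898 to 1080 in P467L aortas, with Tnnt2 at a difference of 1.02 and Nppa and Tnni3 at -0.02 and -0.05. That of the 5 skeletal muscle markers was 327 to 460 and 501 to 774, with Ckm at 1.33 while 3 of the 5 were lower and their median was -0.03. Fibroblast markers summed to 33800 to 35400 and 35700 to 38700, and endothelial markers to 6010 to 6170 and 6180 to 6560, with Cldn5 at 0.73. Red cell markers were lower in 4 of 4 (3660 to 4010 and 1770 to 3770). Lymphocyte markers (538 to 540 and 441 to 553) and adipocyte markers (1990 to 4250 and 2150 to 3310) overlapped between the groups in their sums, as did those of red cells. The part of these cells in the results below was not tested.

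Mcm6, a core subunit of the ring, had the widest separation of the family. Its brightest probe set, 1416251_at, measured 10.63 and 10.54 in littermate aortas against 11.22, 11.18 and 11.16 in P467L aortas. Every P467L array lay above both non-transgenic arrays, with a gap of 0.53 between the groups. The means were 11.19 ± 0.03 (SD, n = 3) and 10.59 ± 0.06 (SD, n = 2), a difference of 0.60 (SE 0.05), which is 1.52-fold with a 95% interval from 1.39 to 1.66.

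A further Mcm6 probe set, 1438852_x_at, gave 9.01 and 9.0 in littermate aortas against 9.70, 9.69 and 9.71 in P467L aortas. The gap between the groups was 0.68 and the difference 0.70 (SE 0.03), or 1.62-fold with a 95% interval from 1.52 to 1.72. The ending _x_at marks probe sets whose probes may also bind other transcripts. The third, 1447756_x_at, was dim: it measured 3.98 and 3.87 against 3.98, 4.05 and 4.02, a difference of 0.09 (SE 0.05), and its groups met at 3.98. The median level over all probe sets was 6.23, so this probe set lay well under it while the 2 others lay well above. Without P467L replicate 1 the differences of the 3 Mcm6 probe sets were 0.59, 0.70 and 0.11. The differences of the bright probe sets thus hardly changed without the array that stood apart. As Mcm6 was chosen for its small p in these same arrays, this is a description and no check of the difference.

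**Figure D1:**
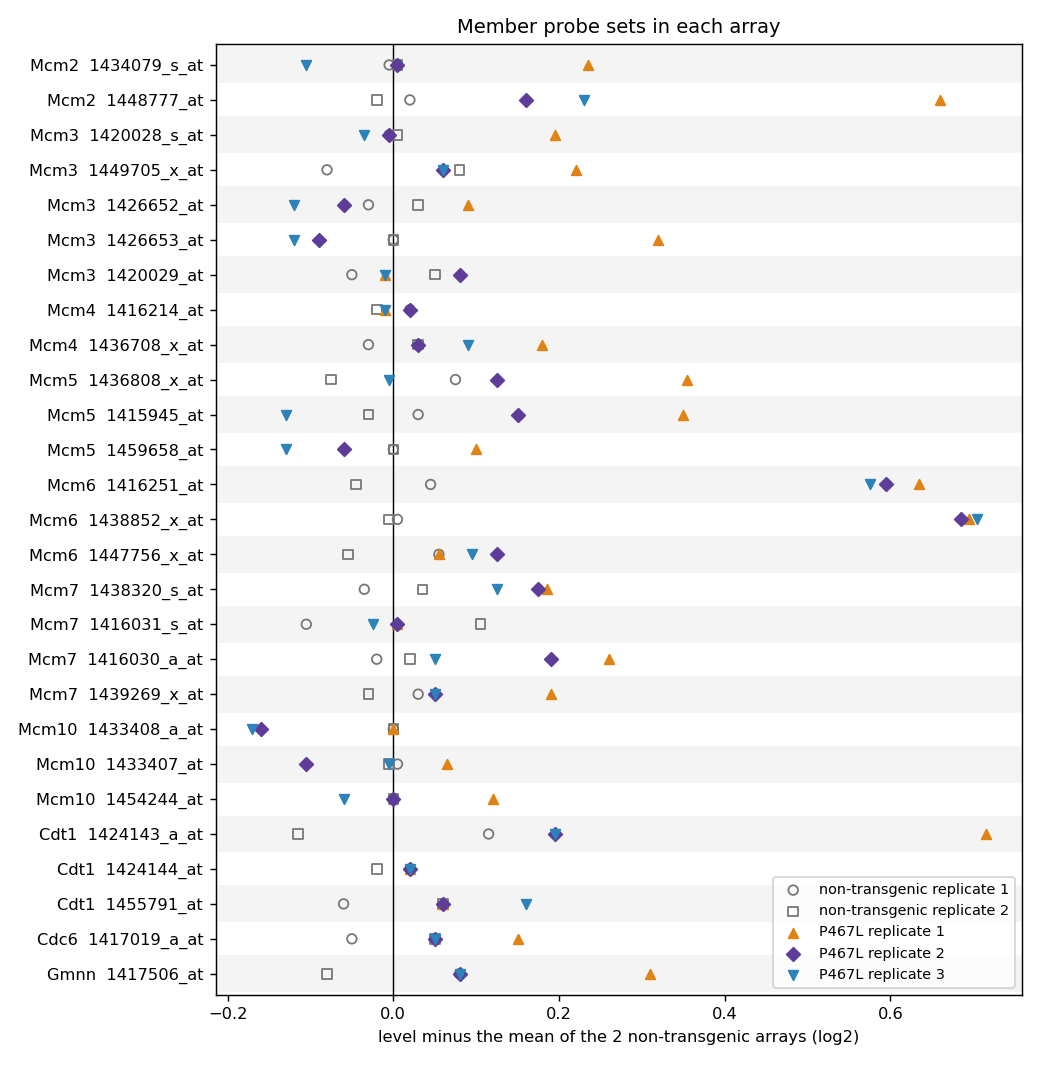
Level of each of the 27 member probe sets in each array, as the log2 difference from the mean of the 2 non-transgenic arrays (open grey symbols; filled symbols are P467L arrays). The 3 P467L arrays sit together near 0.6 and 0.7 for the bright Mcm6 probe sets, while for most other members P467L replicate 1 alone lies to the right.

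The start of the Mcm6 gene is shown because E2F is the textbook link among these genes. The RefSeq promoter table of GRCm38.p6 held windows of 300 bases (250 before the start and 50 after it) for 8 of the 10 genes, with 9 windows in all since Mcm7 has 2 starts. Both strands were searched for the E2F words TTTCCCGC, TTTCGCGC, TTTGCCGC and TTTGGCGC, each of 8 letters. The words occurred in 6 of the 8 genes, namely Mcm3, Mcm5, Mcm6, Mcm7, Cdt1 and Cdc6, and in 6 of the 9 windows, against 2.26% of all 32851 windows of that length. They were not found in the windows of Mcm2 and Mcm10. The 250 bases before the Mcm6 start (chr1:128359706-128359955, minus strand) held 3 matches, of which an overlapping pair begins 110 and 106 bases before the start and the last begins 47 bases before it. Capitals mark the matches.
Mcm6: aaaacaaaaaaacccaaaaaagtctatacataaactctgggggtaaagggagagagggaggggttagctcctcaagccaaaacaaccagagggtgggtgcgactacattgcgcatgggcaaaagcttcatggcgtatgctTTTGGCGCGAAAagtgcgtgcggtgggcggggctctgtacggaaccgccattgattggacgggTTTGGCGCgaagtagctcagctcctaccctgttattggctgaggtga

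Stretches of 50 bases around the matches before the start of Mcm5 (chr8:75109337-75109386, plus strand), Mcm7 (chr5:138172020-138172069, minus strand) and Cdc6 (chr11:98907992-98908041, plus strand) show how the words compare. Their brightest probe sets differed between genotypes by 0.16, 0.16 and 0.08, against 0.60 for Mcm6.
Mcm5: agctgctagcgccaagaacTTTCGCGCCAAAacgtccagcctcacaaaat
Mcm7: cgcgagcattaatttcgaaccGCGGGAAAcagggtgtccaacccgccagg
Cdc6: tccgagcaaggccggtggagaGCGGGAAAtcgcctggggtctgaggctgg
The run of 12 bases in the Mcm6 window, TTTGGCGCGAAA, is the reverse complement of the run in the Mcm5 window, TTTCGCGCCAAA, and 4 of the 32851 windows held it on either strand. In Mcm3 and Cdt1 the matches lay after the start, at bases 20 and 39 and at base 33, and Mcm7 had a further match at base 17 after its start. The CCAAT box, read on both strands as CCAAT, occurred in 6 of the 8 genes (7 of 9 windows) against 37.4% of all windows. The direct repeat AGGTCANAGGTCA, to which PPAR and RXR pairs bind, was found in 0 of the 9 windows and in 0.0396% of all windows. These are matches of letters only, and binding was not measured here.

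The 5 other subunits of the ring, read by 16 probe sets, had differences from -0.03 to 0.35. For Mcm7, the brightest probe set 1438320_s_at measured 8.96 and 9.03 in littermate aortas against 9.18, 9.17 and 9.12 in P467L aortas. The groups did not overlap, and the difference was 0.16 (SE 0.04), or 1.12-fold. Probe set 1416030_a_at measured 7.90 and 7.94 against 8.18, 8.11 and 7.97, a difference of 0.17 (SE 0.08) with a gap of 0.03. Probe set 1439269_x_at gave 7.26 and 7.20 against 7.42, 7.28 and 7.28, a difference of 0.10 (SE 0.06) and a gap of 0.02. The fourth, 1416031_s_at, measured 8.02 and 8.23 against 8.13, 8.13 and 8.10, a difference of -0.01 (SE 0.07), with the P467L arrays inside the non-transgenic range. Of the 4 Mcm7 probe sets 3 thus lay higher in P467L aortas by small gaps, and the other did not separate. Over the whole array the groups did not overlap on the higher side in 11.2% of probe sets.

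The probe sets of Mcm2, another ring subunit, gave unlike values. The brighter one, 1434079_s_at, measured 8.64 and 8.65 in littermate aortas against 8.88, 8.65 and 8.54 in P467L aortas, so that the groups overlapped and the difference was 0.05 (SE 0.11). The dimmer one, 1448777_at, measured 6.97 and 6.93 against 7.61, 7.11 and 7.18, with no overlap and a gap of 0.14. Its difference was 0.35 (SE 0.17), and 0.20 (SE 0.04) without P467L replicate 1. The high value of that array made up much of the Mcm2 difference.

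Mcm4, also a ring subunit, was read by 2 probe sets. Probe set 1416214_at measured 8.47 and 8.43 against 8.44, 8.47 and 8.44, a difference of 0.00 (SE 0.04) with a 95% interval from -0.10 to 0.10. Probe set 1436708_x_at measured 7.82 and 7.88 against 8.03, 7.88 and 7.94, a difference of 0.10 (SE 0.06). Both pairs of groups overlapped. The interval of the brighter probe set does not reach the difference measured for Mcm6. Since Mcm6 was chosen for its small p in these same arrays, no test between the subunits is read from this interval.

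For Mcm5, probe set 1436808_x_at measured 7.37 and 7.22 in littermate aortas against 7.65, 7.42 and 7.29 in P467L aortas, a difference of 0.16 (SE 0.13). Probe set 1415945_at gave 6.19 and 6.13 against 6.51, 6.31 and 6.03, a difference of 0.12 (SE 0.16). The dim 1459658_at gave 4.14 in both littermate arrays against 4.24, 4.08 and 4.01 in P467L aortas, a difference of -0.03 (SE 0.08). In all 3 the highest value was that of P467L replicate 1 and the groups overlapped.

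Mcm3 was read by 5 probe sets, and each pair of groups overlapped. The brightest, 1420028_s_at, measured 7.23 and 7.24 against 7.43, 7.23 and 7.20, a difference of 0.05 (SE 0.08). Probe set 1449705_x_at measured 7.01 and 7.17 against 7.31, 7.15 and 7.15, a difference of 0.11 (SE 0.08). For 1426652_at the values were 7.0 and 7.06 against 7.12, 6.97 and 6.91, a difference of -0.03 (SE 0.08). P467L replicate 1 was the highest array in each of these. Probe set 1426653_at measured 6.08 in both littermate arrays against 6.40, 5.99 and 5.96 in P467L aortas, which gives 0.04 (SE 0.16), and -0.11 (SE 0.03) without P467L replicate 1. The dim 1420029_at measured 4.94 and 5.04 against 4.98, 5.07 and 4.98, a difference of 0.02 (SE 0.05).

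Set against the other ring subunits array by array, the brightest Mcm6 probe set lay above the non-transgenic mean by 0.64, 0.60 and 0.58 in P467L replicates 1 to 3. The mean of the brightest probe sets of the 5 other subunits lay at 0.19, 0.06 and -0.01 in the same arrays. Mcm6 thus exceeded them by 0.44, 0.53 and 0.58, and by 0.04 and -0.04 in the non-transgenic arrays. By their brightest probe sets the 6 subunits had unlike differences in these arrays. This is a description only, and no test is attached to it since Mcm6 was known to be high. Over all 16 probe sets of the 5 other subunits the differences ran from -0.03 to 0.35.

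**Figure D2:**
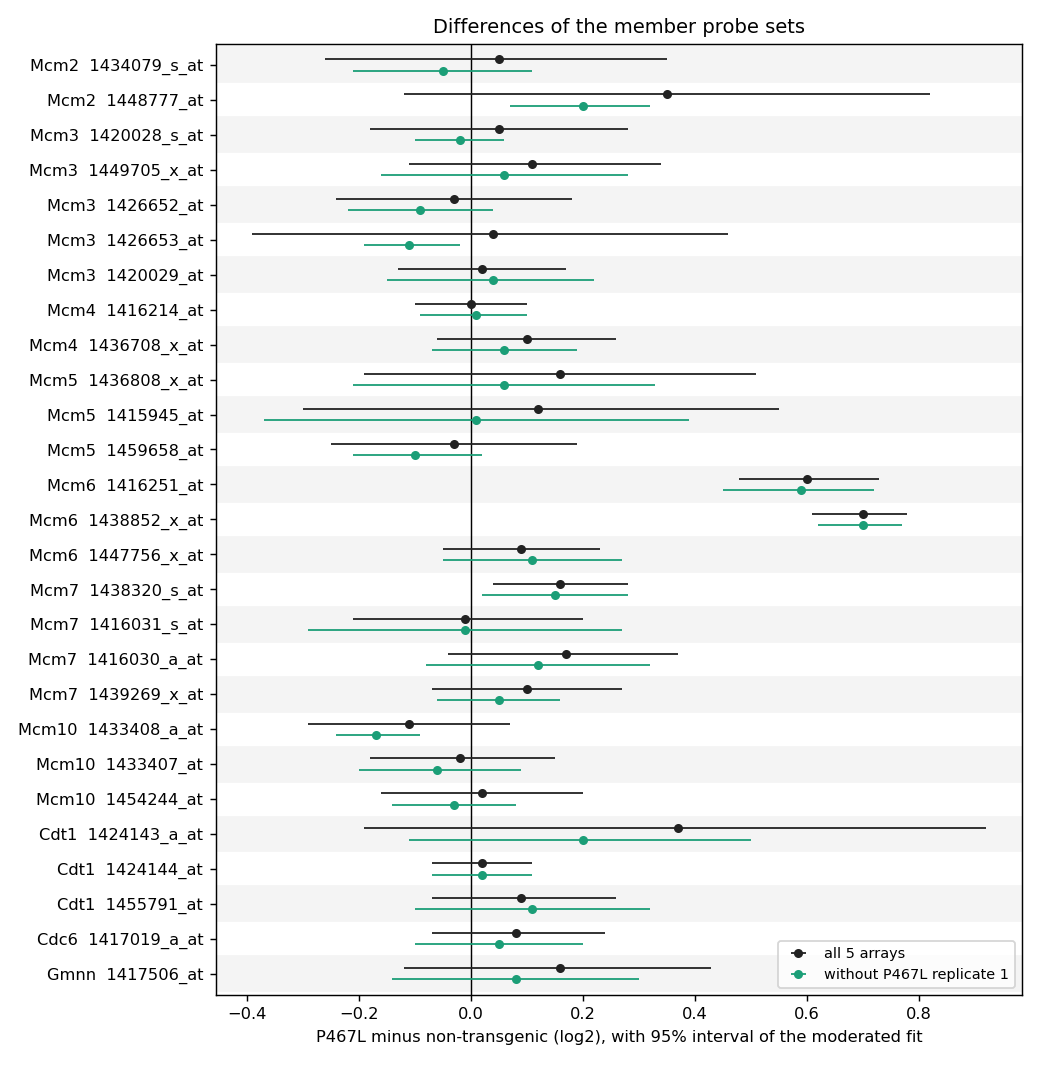
Difference between P467L and non-transgenic aortas (log2) of the 27 member probe sets, with the 95% interval of the moderated fit, for all 5 arrays (black) and without P467L replicate 1 (green). The bright Mcm6 probe sets keep 0.59 and 0.70 without that array, while Mcm2 1448777_at and Cdt1 1424143_a_at go from 0.35 to 0.20 and from 0.37 to 0.20.

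The loading factors were read by 4 probe sets. Cdt1, which brings the ring to the origin, measured 7.05 and 6.82 in littermate aortas against 7.65, 7.13 and 7.13 in P467L aortas by its brightest probe set, 1424143_a_at. The groups did not overlap, with a gap of 0.08, but P467L replicate 1 lay 0.52 above the next array. The difference was 0.37 (SE 0.20), and 0.20 (SE 0.10) without that array. The 2 other Cdt1 probe sets lay below the median level: 1424144_at measured 6.13 and 6.09 against 6.13 in all 3 P467L arrays, and 1455791_at measured 3.46 and 3.58 against 3.58, 3.58 and 3.68. Their differences were 0.02 (SE 0.03) and 0.09 (SE 0.06), with groups that met. Cdc6, the ATPase that acts with Cdt1, was dim: its probe set 1417019_a_at measured 4.88 and 4.98 against 5.08, 4.98 and 4.98, a difference of 0.08 (SE 0.06).

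Geminin, the inhibitor of Cdt1, had 1 probe set, 1417506_at. It measured 6.77 and 6.61 in littermate aortas against 7.0, 6.77 and 6.77 in P467L aortas. P467L replicates 2 and 3 equalled non-transgenic replicate 1, and the difference was 0.16 (SE 0.10). The RefSeq promoter table gave no window for Gmnn or Mcm4.

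Mcm10 was the member whose brightest probe set was lower in P467L aortas. Probe set 1433408_a_at measured 5.51 in both littermate arrays against 5.51, 5.35 and 5.34 in P467L aortas, a difference of -0.11 (SE 0.07). P467L replicate 1 equalled the non-transgenic arrays, and without it the difference was -0.17 (SE 0.02). Probe set 1433407_at measured 4.99 and 4.98 against 5.05, 4.88 and 4.98, and 1454244_at measured 4.22 in both non-transgenic arrays against 4.34, 4.22 and 4.16. Their differences were -0.02 (SE 0.06) and 0.02 (SE 0.07). All 3 Mcm10 probe sets lay below the median level of the array, where differences are hard to read.

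Ordered by the difference of the brightest probe set, Mcm6 at 0.60 was followed by Cdt1 at 0.37, then by Mcm7, Mcm5 and Gmnn at 0.16 each, Cdc6 at 0.08, Mcm2 and Mcm3 at 0.05, Mcm4 at 0.00 and Mcm10 at -0.11. From Cdt1 down, each gene's 95% interval overlapped that of its neighbour in this order. The interval of Cdt1, from -0.19 to 0.92, also took in that of Mcm6, from 0.48 to 0.73. The interval of Mcm5, from -0.19 to 0.51, overlapped that of Mcm6, and the interval of Mcm7, from 0.04 to 0.28, did not. As Mcm6 was chosen for its small p in these same arrays, this is a description of intervals and no test.

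The median over the 10 genes was 0.12, beside 0.02 over all 18193 genes read the same way, and 0.06 without P467L replicate 1. In P467L replicates 1 to 3 the 10 genes had median deviations from the littermate mean of 0.22, 0.07 and 0.02. Of the 27 probe sets 21 were higher in P467L aortas and 5 lower, where 48.8% of all probe sets were higher and 49.2% lower. After centring of the arrays on their medians the counts were 26 and 1, and 64.9% of all probe sets were higher. After a further quantile normalization they were 21 and 6, and 54.2% of all were higher. Among the members P467L replicate 1 was the single highest array in 19 of 27 probe sets, or 70.4%, and the single lowest in 0. It was the single highest in 36.6% of all probe sets.

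In the fit across all probe sets, limma passed 0 of the 27 members at a Benjamini-Hochberg adjusted p of 0.05, and 0% of all probe sets. The smallest adjusted p on the array, 0.0953, was shared by 14 probe sets. At an unadjusted p of 0.05, 3 of the 27 lay past the threshold on the higher side, 2 of Mcm6 and 1 of Mcm7, beside 4.71% of all probe sets. On the lower side there were 0, beside 2.74%. The groups did not overlap in 7 of the 27 on the higher side, beside 11.2% of all probe sets, and in 0 on the lower side, beside 7.61%. Without P467L replicate 1 these counts were 8 on the higher side, beside 16.6%, and 4 on the lower side, beside 15.5%. The 4 were 1 probe set each of Mcm5 and Mcm10 and 2 of Mcm3. As the family was chosen on this contrast, nothing is read from these counts.

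**Figure D3:**
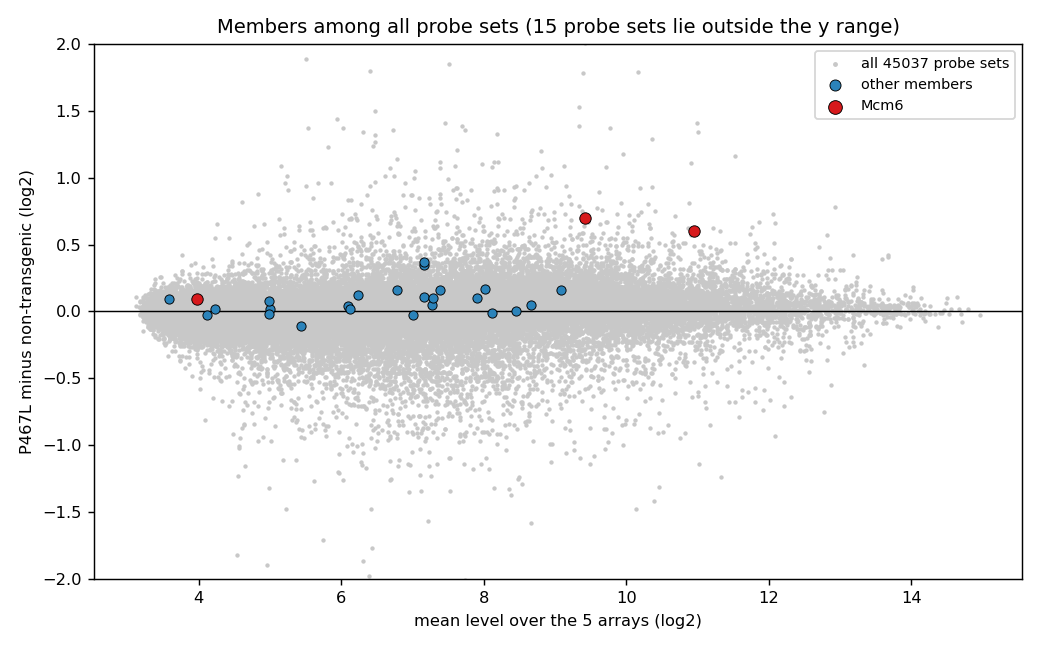
Difference between genotypes (log2) against mean level (log2) for the 45037 probe sets (grey), with Mcm6 in red and the other members in blue. The Mcm6 probe sets at mean levels of 10.95 and 9.42 stand at 0.60 and 0.70, the dim one at 3.98 lies near 0, and the other members lie between -0.11 and 0.37.

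The rest of the replication pathway was read from lists of 118 genes, of which 115 were measured, by the brightest probe set of each. None passed an adjusted p of 0.05 in limma, and 5 higher and 2 lower genes lay past an unadjusted p of 0.05. Over all genes read the same way the shares were 6.94% and 2.51%, and 5 and 2 of 115 are smaller shares. In all, 75 were higher and 38 lower in P467L aortas, with a median of 0.05, beside 56.0% of all genes higher and a median of 0.02. P467L replicate 1 was the single highest array in 59 of the 115, and in 44.2% of all genes.

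Origin recognition and MCM-related genes, which mark the origin or bind the ring, had 5 of 9 higher and a median of 0.01. Orc5, an origin recognition subunit, measured 7.99 and 8.08 against 8.14, 8.28 and 8.34 (0.22, SE 0.08, adjusted p = 0.644). The MCM-binding protein Mcmbp measured 0.08 (SE 0.04, adjusted p = 0.784). Origin firing genes, which switch the loaded ring on, had 9 of 13 higher and a median of 0.04. The kinase Cdc7, which phosphorylates the ring, gave 0.14 (SE 0.06, adjusted p = 0.736) and its activator Dbf4 gave 0.11 (SE 0.11, adjusted p = 0.825). No gene of either list passed limma's test.

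Fork genes, the polymerases, clamp and loaders that follow the helicase, had 12 of 22 higher and a median of 0.02, with 0.13 (SE 0.06) for Rpa3 of the single-strand binding complex. The polymerase α subunit Pola1 gave -0.15 (SE 0.09). Of 9 genes of licensing turnover, which act in the degradation of Cdt1 and other cell cycle proteins, 5 were higher, with a median of 0.04. Cks1b, a cofactor of the Skp2 ubiquitin ligase, measured 10.56 and 10.62 against 10.43, 10.34 and 10.27, and its groups did not overlap (-0.24, SE 0.06, adjusted p = 0.515). The ligase adaptor Ddb1 gave 0.12 (SE 0.06). Genes of S phase nucleotide and chromatin supply had 7 of 9 higher and a median of 0.04, with 0.27 (SE 0.13) for the dUTPase Dut and 0.12 (SE 0.07) for the histone mRNA binding protein Slbp.

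E2F, Rb and G1 control genes, which decide on entry into the cycle, had 23 of 29 higher and a median of 0.07. Among them E2f6, an E2F that represses its targets, measured 9.14 and 9.08 in littermate aortas against 9.42, 9.48 and 9.52 in P467L aortas. The groups did not overlap, and the difference was 0.36 (SE 0.05, adjusted p = 0.279). Cyclin D2 (Ccnd2), which drives the G1 kinases, measured 12.11 and 12.12 against 12.44, 12.38 and 12.35, a difference of 0.28 (SE 0.04, adjusted p = 0.326). Rbl1, a member of the Rb family named here after its values were seen, had 6.43 and 6.83 against 7.32, 7.11 and 7.25 (0.60, SE 0.15, adjusted p = 0.495). The groups of this list did not overlap in 8 of 29 on the higher side and in 2 on the lower side, beside 16.1% and 6.55% of all genes. The 2 lower ones, also named after their values were seen, were E2f2 at -0.26 (SE 0.14) and E2f5 at -0.25 (SE 0.07).

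Mitosis genes, which mark dividing cells, had 14 of 24 higher and a median of 0.02. Nusap1, a spindle protein, measured 6.19 and 5.65 against 5.52, 5.52 and 5.34 (-0.46, SE 0.18, adjusted p = 0.716). Cdca8, a subunit of the chromosomal passenger complex, gave -0.14 (SE 0.07, adjusted p = 0.784). Only 4 of these 24 genes lay at or above the median level of the array, and their summed linear level was 1320 to 1350 in non-transgenic and 1250 to 1440 in P467L aortas. The ranges of the 2 groups thus overlapped for the mitotic genes, most of which were dim.

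**Figure D4:**
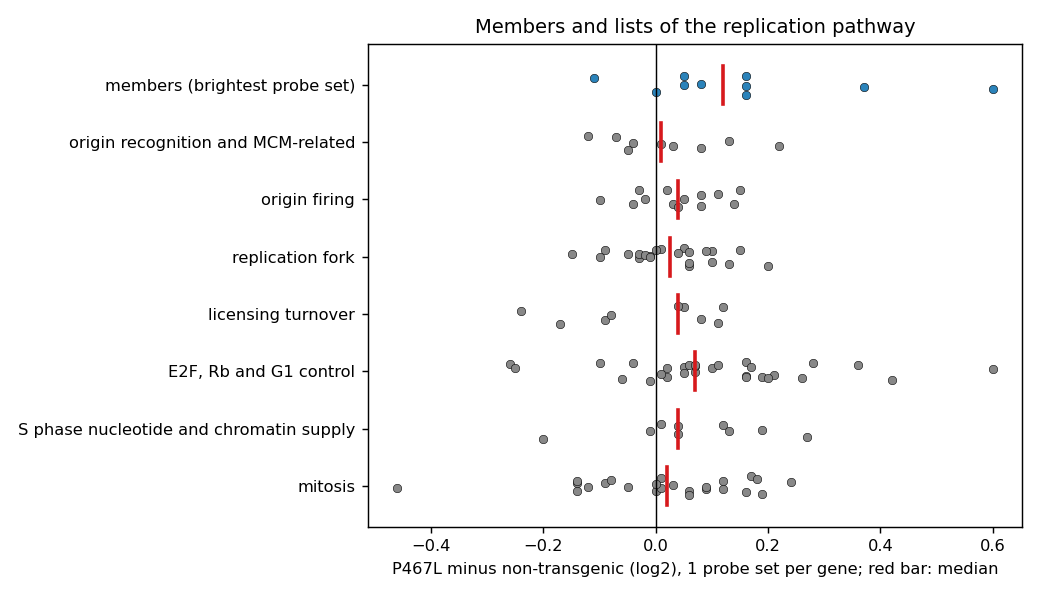
Difference between genotypes (log2) of each measured gene of the members and of the 7 pathway lists, 1 probe set per gene, with the median of each list as a red bar. The medians of the 7 lists lie between 0.01 and 0.07 and that of the members at 0.12, with Mcm6 at 0.60 to the right. The list of E2F, Rb and G1 control genes runs from -0.26 for E2f2 to 0.60 for Rbl1.

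The 5 genes whose pattern over the 5 arrays was nearest to that of the brightest Mcm6 probe set were taken from 19636 bright probe sets of other genes. Nearness was the root mean square difference after each probe set was centred on its own mean. They were Mtus2, a microtubule-associated protein, at 0.0219, the transcription factor Ets2 at 0.0310, the nucleosome binding protein Hmgn3 at 0.0325, Naf1, an assembly factor of H/ACA ribonucleoproteins, at 0.0482 and Map7d2 at 0.0492. The second Mcm6 probe set lay at 0.0568. Differences between genotypes were 0.62 for Mtus2, Ets2 and Naf1, 0.60 for Map7d2 and 0.59 for Hmgn3. Values near that of Mcm6 follow from the way these genes were picked. None of them was a member of the pathway lists.

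The measured genes nearest to Mcm6 on the chromosome did not separate the groups, but not all of them were bright enough to read. Of the 3 nearest measured protein-coding genes on either side, chosen after values were seen and ordered by GRCm38.p6, R3hdm1, Ubxn4 and Lct lay on one side and Cxcr4, Thsd7b and Cd55b on the other. Their differences were -0.05, -0.16, -0.07, 0.08, -0.08 and 0.00, with SEs from 0.05 to 0.16, and the groups overlapped in all 6. Lct, Cxcr4 and Cd55b lay under the median level of 6.23, at no more than 4.11, 5.34 and 3.38 in any array. Differences are hard to read there. Genes without a probe set named for them alone were passed over, so a nearer gene may be missing.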

How the data were processed

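The authors deposited log2 values. The submitters' processing notes name RMA and Affymetrix Power Tools, without versions. RMA quantile-normalizes the arrays, and a change common to most transcripts is not visible after it. The deposited values carry 2 decimals, and at least 3 of the 5 arrays shared 1 value in 6 of the 27 member probe sets and in 26.9% of all.

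From the 45037 probe sets left after 64 Affymetrix controls, names came from the platform table, updated by NCBI gene number (34945 with 1 gene, 932 with several and 9160 with none). Differences between genotypes were fitted by lmFit and eBayes of limma 3.58.1 under R 4.3.3, two-sided with 4.23 degrees of freedom per test, and p-values were adjusted over all probe sets by Benjamini-Hochberg. SEs and 95% intervals are those of the moderated fit. The pipeline was tested on simulated data with differences larger than that of any member, so detection at the members' sizes was not tested. The labels name no batch. Only 5 arrays limit the precision.

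The members and lists were chosen with earlier results of these data known. Every member probe set was named, and of each pathway list the genes past an adjusted p of 0.05 or, where none passed, the 2 with the smallest p. Patterns near Mcm6 were taken from probe sets at or above the median level. Alternatives were the replicate block, 2 further scalings, a level filter, a robust fit with a variance trend, array weights, 1 probe set per gene, the mean or median of a gene's probe sets, and leaving out each array. Array weights estimated gene by gene were added after the data were seen.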

Additional observations from a re-analysis of the deposited data

How the results depend on the processing

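The count of member probe sets past an adjusted p of 0.05 in limma was 0 in the main comparison. It stayed at 0 with the replicate block, both further scalings, the level filter and the variance trend with robust estimation. The count was also 0 with 1 probe set per gene and without each P467L array in turn. Of all probe sets tested, 15 of 45037 passed with each array centred and 10 of 18193 with 1 probe set per gene. With the others of these settings 0 passed. With array weights the count of member probe sets was 3 (2 of Mcm6 and 1 of Mcm7). That estimate stopped before it converged, gave P467L replicate 2 a weight of 34.1 against 0.148 to 0.901 for the others, and called 2245 of all 45037 probe sets. With weights estimated gene by gene, added after the data were seen, it was 2 (both Mcm6), with 283 called in all. With the replicate block the median of the 10 genes was 0.15 and the smallest adjusted p of a member 0.552. No littermate array shares the number of P467L replicate 3, so the block sets that array aside. The differences of the members with the block equalled those found without P467L replicate 3. The replicate numbers were not shown to pair the arrays. Deviations of same-numbered arrays correlated at 0.11 and 0.01, over 2 pairs only. The deviations of the 2 littermate arrays mirror each other about their mean, so these correlations cannot show a pairing or its absence. The median of the 10 genes ran from 0.06 to 0.16 over all its alternatives. The difference of the brightest Mcm6 probe set ran from 0.56 to 0.65. Of 118 differences of single genes recomputed, 112 moved by less than 1 residual SD. The 112 include those with the level filter and with the variance trend and robust estimation. These could not move, since neither setting changes a difference. Those with the replicate block repeat those without P467L replicate 3. The 6 that moved further were 2 each of Mcm4, Mcm6 and Mcm7. Mcm6 was 0.65 and 0.56 without non-transgenic replicates 1 and 2. Mcm7 was 0.20 with each array centred and 0.11 after a further quantile normalization. Mcm2 reached -0.05 and Mcm3 -0.02 without P467L replicate 1, and Mcm4 was 0.04 with each array centred and -0.05 after a further quantile normalization. Without 1 non-transgenic array, the lone one is assumed to vary like the others. The count of probe sets with no overlap on the higher side was 12 and 13 without non-transgenic replicates 1 and 2, beside 21.8% and 20.4% of all probe sets. Signal over background was not tested here, and 10 of the 27 probe sets lay below the median level.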
